A study of Mus musculus with 6 samples.

Results

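Lysosomal genes are described here across splenic CD11b+ cells of both groups: 46 genes chosen by name for their role, of 43432 genes in the table. The 46 genes were chosen with earlier results of these data known. They comprise 16 proteases and glycosidases, 8 lipid hydrolases and lipid-handling proteins, 7 lysosomal membrane proteins, 13 subunits and accessory proteins of the vacuolar proton pump (V-ATPase) and the transcription factors Tfeb and Tfe3. All 46 were found by symbol, and all 46 had the mean of at least 10 normalized counts that the test required.

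RNA was sequenced in bulk from 6 mice, 3 per group, all C57BL/6J with the Rag1 KO genotype, with spleens taken 8 days after cell transfer. Without Rag1 the antigen receptor genes are not rearranged, so hosts lack mature lymphocytes of both lineages. In the WT iGB6 group the transferred B cells were wild type, had been grown in the iGB culture and carried a retroviral pMSCV-IRES2-eGFP vector with the Il6 gene. In the IgHMOG iGBGFP group they carried the IgHMOG heavy chain, which recognises myelin oligodendrocyte glycoprotein (MOG), and the empty pMSCV vector. Every mouse also received unmanipulated 2D2 CD4+ T cells, and the B cells of both groups had been loaded with MOG protein. The groups thus differed in B cell genotype and in vector at once. Each group had 1 female, its replicate 1, and 2 males, and the labels give no age.

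Libraries held 5955142 to 7564254 reads in WT iGB6 and 5196339 to 6611212 in IgHMOG iGBGFP. Itgam, which encodes CD11b, was at 10809 ± 1419 in WT iGB6 and 7865 ± 2374 in IgHMOG iGBGFP normalized counts (mean ± SD over 3 libraries), so the sorted marker was abundant in both groups, and its adjusted p was 0.203. The neutrophil markers S100a8 and S100a9 were the most abundant of the marker genes, at 175928 and 95180.5 normalized counts in WT iGB6, against 126739 and 71174 in IgHMOG iGBGFP. Il6 had 3 reads in each WT iGB6 library, against 9, 20 and 6 reads in IgHMOG iGBGFP replicates 1, 2 and 3.

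Lysosomes break down material taken up by phagocytosis or delivered by autophagy. The V-ATPase, a membrane V0 ring joined to a cytosolic V1 head, pumps protons inwards at the expense of ATP, and the acid lumen activates cathepsins, glycosidases and lipases. TFEB and TFE3, related basic helix-loop-helix factors held in the cytoplasm by mTORC1 phosphorylation, activate many of these genes through a shared promoter element. Monocytes, macrophages and dendritic cells are rich in these enzymes, and cathepsin S is known for trimming the invariant chain of MHC class II in antigen-presenting cells.

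The comparison asks how these genes differed between CD11b+ cells of mice given Il6-carrying wild-type B cells and of mice whose B cells had the IgHMOG chain and an empty vector. Of 46 genes, 2 were lower in WT iGB6, Tfeb and Npc2, 0 were higher and 44 did not pass (limma on log2(normalized count + 1) with a term for sex, two-sided, Benjamini-Hochberg adjusted p below 0.05 over 9923 genes). That is 4.35% of the 46, against 6.12% of all genes tested (3.37% lower and 2.75% higher), a share no larger than the background. In bulk RNA, fewer cells of a type and less RNA per cell cannot be told apart. The 46 genes had a median log2 fold change of -0.09, with 19 above 0 and 27 below. Over all tested genes the median was 0.02, with 5119 above 0 and 4804 below. The 8 lipid genes had a median of -0.50 and the 7 V1 subunits one of 0.34.

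Fold changes throughout are WT iGB6 over IgHMOG iGBGFP. Those from limma are on the log2(normalized count + 1) scale unless another scaling or pseudocount is named. Those of edgeR, DESeq2 and the authors' deposited table are the log2 estimates of these methods. At an unadjusted p below 0.05 there were 12 of the 46 genes (26.1%), 8 lower and 4 higher, beside 24.5% of all tested genes. The libraries of the groups did not overlap for 9 of the 46. WT iGB6 was lower in all libraries for Tfeb, Npc2, Npc1, Lamp1 and Laptm5 (11.4% of all tested genes) and higher for Tpp1, Atp6v1a, Atp6v1c1 and Atp6v1h (12.2% of all tested genes), counts close to those backgrounds. With edgeR on the recovered reads the same 2 genes were called (6.11% of all genes), with DESeq2 Ctss, Gm2a and Psap as well (9.58%), and in the authors' deposited table these and Ctsl, which was higher (8.18%). In limma without the sex term 0 of the 46 passed (0.101% of all genes), with 10 of 46 (21.7%) at an unadjusted p below 0.05 beside 20.3% of all genes, while the fold changes of Tfeb and Npc2 stayed at -1.18 and -0.86. With males alone, 2 libraries fewer, 0 of the 46 passed (1.35% of all genes), with 10 of 46 (21.7%) at an unadjusted p below 0.05 beside 18.4% of all genes.

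**Figure D1:**
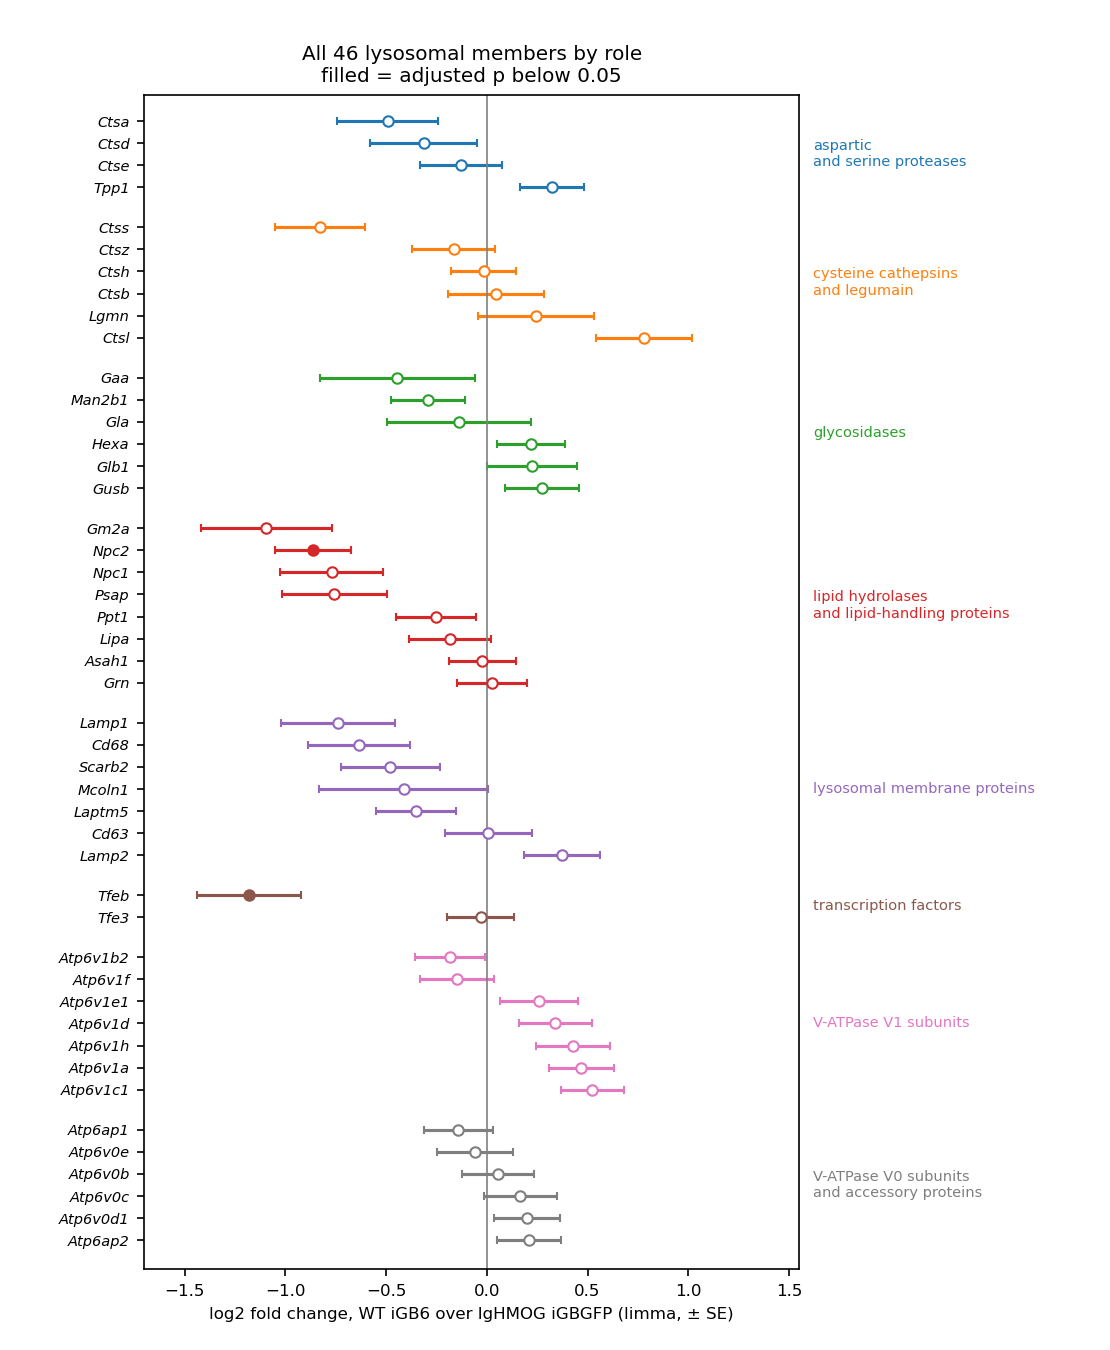
Log2 fold change of each of the 46 genes, WT iGB6 over IgHMOG iGBGFP, with limma's standard error, grouped by role; filled points have an adjusted p below 0.05. Tfeb at -1.18 and Npc2 at -0.86 are the filled points, lipid genes lie mostly left of 0 and 5 of the 7 V1 subunits lie right of 0.

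Tfeb had the largest fold change of the 46 genes. It was measured at 179, 205 and 103 normalized counts in WT iGB6 replicates 1, 2 and 3, against 322, 366 and 381 in the IgHMOG iGBGFP replicates. All WT iGB6 libraries were lower than all IgHMOG iGBGFP libraries, and WT iGB6 replicate 3 was the lowest. The level fell to 163 ± 52.8 in WT iGB6, against 356 ± 30.4 in IgHMOG iGBGFP (log2 fold change -1.18, SE 0.26, adjusted p = 0.0322; errors are SD over 3 libraries), and the difference was -0.84 in the female pair and -1.35 in the males on the log2 scale. The gene (ENSMUSG00000023990) lies on chromosome 17, 47737030 to 47792419 (GRCm38). In the authors' deposited table its log2 fold change was -1.02 with an adjusted p = 0.00257. The call was lost in limma without the sex term (adjusted p = 0.110), with males alone (adjusted p = 0.0686) and without WT iGB6 replicate 1 or any IgHMOG iGBGFP replicate (highest adjusted p = 0.191).

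Tfe3, the close relative with the same target element, stood at 503, 406 and 448 normalized counts in WT iGB6 replicates 1, 2 and 3, against 544, 441 and 406 in the IgHMOG iGBGFP replicates. The groups overlapped (log2 fold change -0.03, SE 0.16, adjusted p = 0.931). Mitf and Tfec, the other members of that factor family, did not pass either, at -0.70 (SE 0.36) and 0.74 (SE 0.27) on the log2 scale. Mcoln1, a calcium channel of the lysosomal membrane that activates TFEB through calcineurin, had the lowest level per kb of the 46 genes. It stood at 11.9, 11.1 and 9.00 normalized counts in WT iGB6 replicates 1, 2 and 3, against 10.2, 20.7 and 14.0 in the IgHMOG iGBGFP replicates, in overlapping groups (log2 fold change -0.41, SE 0.42, adjusted p = 0.588).

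The element that TFEB and TFE3 bind contains CACGTG, and its preferred form has a T before it. Promoter windows of 300 bases (250 before to 50 after a RefSeq transcription start, GRCm38.p6) were given for 38 of the 46 genes and searched on both strands. TCACGTG was found in 12 of the 38 (31.6%), beside 4.29% of all 27025 genes of that table. CACGTG, which TCACGTG contains, was found in 13 of 38 (34.2%), beside 8.09% of all genes. By role, TCACGTG was in 3 of 6 glycosidases, 2 of 3 aspartic and serine proteases and 2 of 7 membrane proteins. It was in 1 of 4 genes of the cysteine cathepsins and legumain, and that gene was Lgmn. Of pump genes it was in 1 of 4 V1 subunits and 3 of 6 V0 and accessory genes. It was in 0 of 6 lipid genes and 0 of 2 transcription factors. The windows shown run 10 bases to either side of the match nearest the start, on the strand of the gene, with the match in capitals. They are shown because they are the letters behind these shares, in 3 proteases (Ctsa, Ctsd and Lgmn), a membrane glycoprotein, a channel and 2 pump subunits, beside Ctsl with the bare core.
Ctsa (chr2:164833767-164833793, + strand): atgcagatgcTCACGTGaccagagcta
Ctsd (chr7:142387909-142387935, - strand): gcccgcgtctCACGTGAcccgttgagg
Lgmn (chr12:102439126-102439152, - strand): ggaatgtctgTCACGTGgtccatttta
Lamp1 (chr8:13159135-13159161, + strand): cgtgaccacaTCACGTGcggaacggag
Mcoln1 (chr8:3500464-3500490, + strand): gcgccccgctCACGTGAccgcggcgca
Atp6v1a (chr16:44139374-44139400, - strand): ttttttaaatCACGTGAtaggcttaac
Atp6v0d1 (chr8:105566051-105566077, - strand): ctactgcggtCACGTGAgacgcggtgc
Ctsl (chr13:64370741-64370766, - strand): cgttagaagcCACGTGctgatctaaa

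The 12 genes with TCACGTG had a median log2 fold change of -0.10, ranging between -0.74 (Lamp1) and 0.47 (Atp6v1a), with 5 above 0, 7 below and 0 called. The 26 matched genes without it, Tfeb and Npc2 among them, had a median of -0.14, with 11 above 0 and 15 below. A match is a run of letters and not a measured binding site. The window of Npc2, a called gene with 1 start in the table, holds no CACGTG, which says only that these letters are not in it. It is shown in lower case, for the - strand:
Npc2 (chr12:84773063-84773362): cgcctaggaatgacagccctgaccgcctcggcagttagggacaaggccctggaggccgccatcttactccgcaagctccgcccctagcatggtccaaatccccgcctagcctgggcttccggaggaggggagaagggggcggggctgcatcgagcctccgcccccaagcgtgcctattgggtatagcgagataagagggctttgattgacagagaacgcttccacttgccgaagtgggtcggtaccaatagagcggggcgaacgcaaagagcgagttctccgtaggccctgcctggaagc

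Proteins that handle lipids in the lysosome had the lowest median of the 7 classes with more than 2 genes. Of these 8 genes 7 lay below 0, beside 4804 of all 9923 tested genes. In limma 1 was called and 4 had an unadjusted p below 0.05, beside 6.12% and 24.5% of all tested genes. Npc2, which hands cholesterol out of the lumen to the membrane protein Npc1, had 2317, 3319 and 2490.3 normalized counts in WT iGB6 replicates 1, 2 and 3, against 3477, 5636 and 5887 in the IgHMOG iGBGFP replicates. Every WT iGB6 library was below every IgHMOG iGBGFP library, and replicate 1 was the lowest of each group. The level was 2709 ± 536 in WT iGB6 and 4999.9 ± 1325 in IgHMOG iGBGFP (log2 fold change -0.86, SE 0.19, adjusted p = 0.0318; errors are SD over 3 libraries; difference -0.59 in the female pair and -1.002 in the males). In the authors' deposited table it was at -0.81 with an adjusted p = 0.00152. Its call was lost in limma without the sex term (adjusted p = 0.132), with males alone (adjusted p = 0.0834) and without WT iGB6 replicate 1 or any IgHMOG iGBGFP replicate (highest adjusted p = 0.178). The gene (ENSMUSG00000021242) lies on chromosome 12, 84754562 to 84773152.

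Npc1 itself, the membrane partner, had low counts. It stood at 56.9, 52.9 and 41.6 normalized counts in WT iGB6 replicates 1, 2 and 3, against 79.8, 77.6 and 103 in the IgHMOG iGBGFP replicates, without overlap, and did not pass (log2 fold change -0.77, SE 0.25, adjusted p = 0.0987). Its exons share 511 bases with those of Rmc1 on the other strand, and Rmc1 had 511 normalized counts on average, and the labels do not say that counting used the strand, so its count is uncertain.

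Psap, the precursor of the saposins that present sphingolipids to their hydrolases, was the most abundant of the 46 genes per length. Its level per kb of exon was 9130.5 in WT iGB6 and 15233 in IgHMOG iGBGFP. It had 19849, 34666 and 20647 normalized counts in WT iGB6 replicates 1, 2 and 3, against 30534, 44657 and 50205 in the IgHMOG iGBGFP replicates. WT iGB6 replicate 2 was above IgHMOG iGBGFP replicate 1, so the groups overlapped (log2 fold change -0.76, SE 0.26, adjusted p = 0.111; difference -0.62 in the female pair and -0.82 in the males). Gm2a, the activator that lifts GM2 ganglioside to hexosaminidase, had 2278, 5747 and 2043 normalized counts in WT iGB6 replicates 1, 2 and 3, against 3852, 8482 and 7966 in the IgHMOG iGBGFP replicates. The pattern of libraries was that of Psap, with the males of IgHMOG iGBGFP and WT iGB6 replicate 2 high (log2 fold change -1.09, SE 0.32, adjusted p = 0.0722). Without WT iGB6 replicate 2 the fold change of Gm2a was -1.47 with an adjusted p = 0.000732, and without WT iGB6 replicate 3 it was -0.62 (adjusted p = 0.0521). Psap did not pass in limma whichever library was left out (lowest adjusted p = 0.0839).

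The other 4 lipid genes did not pass. Grn, the precursor of the granulins, averaged 3867 ± 369.5 in WT iGB6 and 3792 ± 244 in IgHMOG iGBGFP (0.03, SE 0.17, adjusted p = 0.944). Lipa, the acid lipase, was at -0.18 (SE 0.20), the ceramidase Asah1 at -0.02 (SE 0.17) and the thioesterase Ppt1 at -0.25 (SE 0.20) on the log2 scale.

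**Figure D2:**
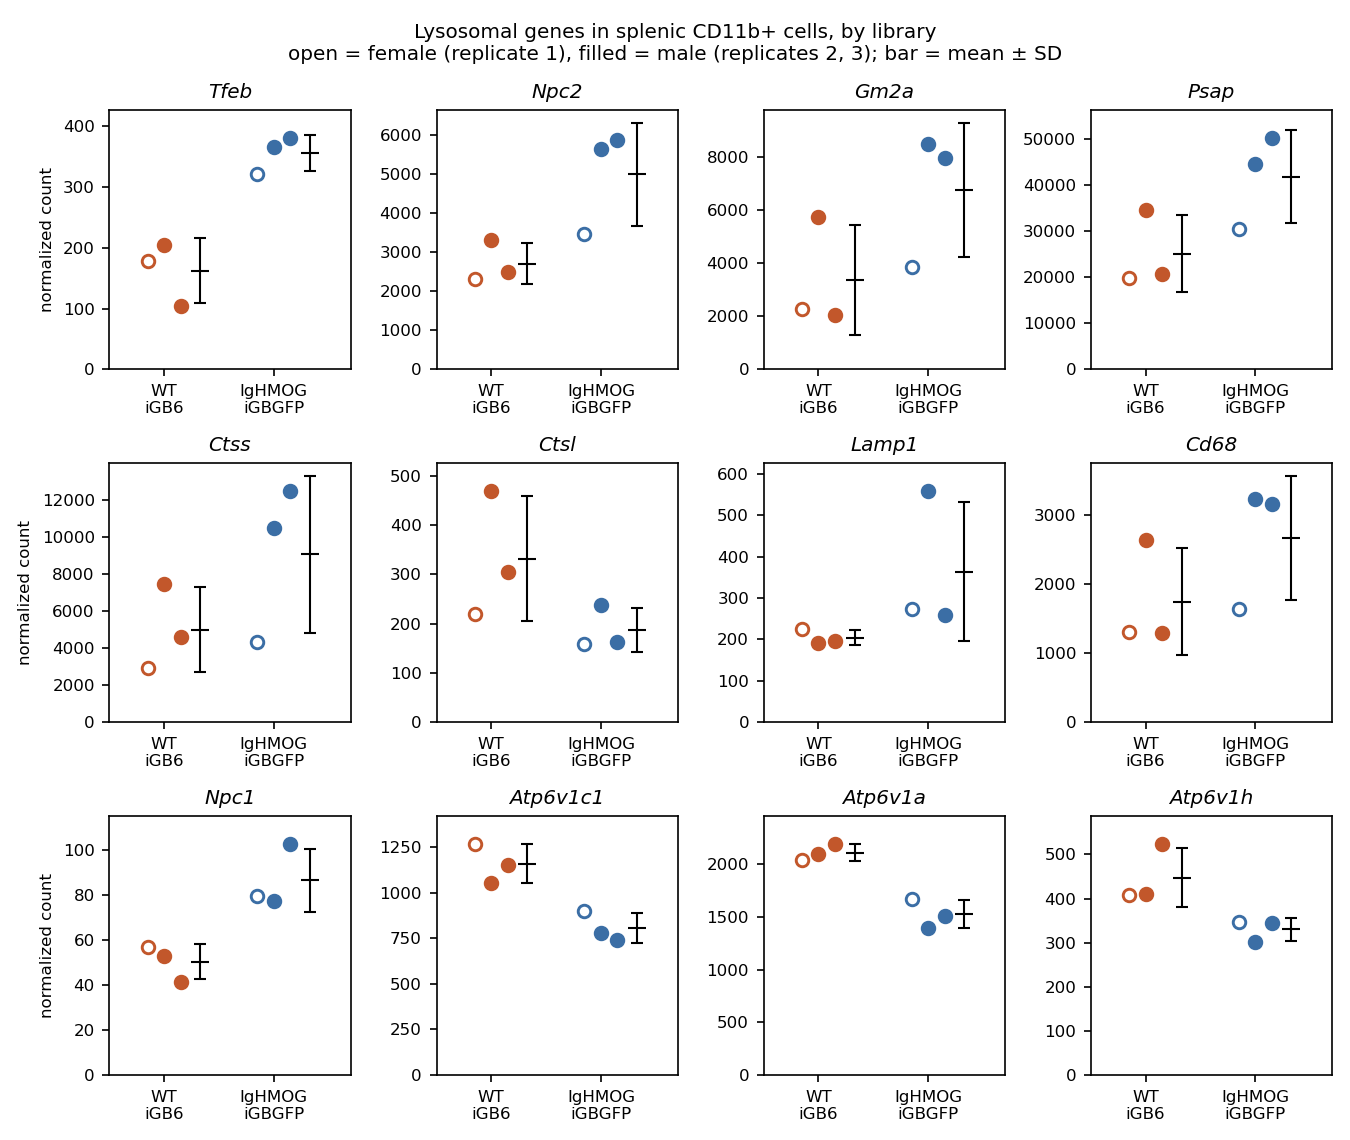
Normalized counts of 12 genes in each library, WT iGB6 left of IgHMOG iGBGFP, with mean ± SD (n = 3 per group); open points are the females and filled points the males. The groups do not overlap for Tfeb, Npc2, Npc1, Lamp1, Atp6v1c1, Atp6v1a and Atp6v1h. WT iGB6 replicate 2 reaches the IgHMOG iGBGFP range for Gm2a, Psap, Ctss and Cd68, and WT iGB6 replicate 1 does so for Ctsl.

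Among the cysteine cathepsins and legumain 0 of 6 passed in the main limma fit or edgeR. In that limma fit 2 had an unadjusted p below 0.05, beside 24.5% of all tested genes. The genes that came closest pointed in opposite directions. Ctss had 2929.9, 7467 and 4600.5 normalized counts in WT iGB6 replicates 1, 2 and 3, against 4321, 10463 and 12462 in the IgHMOG iGBGFP replicates. WT iGB6 replicate 1 was the lowest library and the IgHMOG iGBGFP males were the highest, with the groups overlapping (log2 fold change -0.83, SE 0.22, adjusted p = 0.0566; difference -0.56 in the female pair and -0.96 in the males). In DESeq2 on the reads Ctss passed (adjusted p = 0.00998), as in the authors' deposited table (adjusted p = 0.00961). Ctsl, which encodes cathepsin L, an endopeptidase with invariant chain processing as one of its known roles in thymic epithelium, had 221, 469.7 and 306 normalized counts in WT iGB6 replicates 1, 2 and 3, against 159.6, 239 and 163 in the IgHMOG iGBGFP replicates. WT iGB6 replicates 2 and 3 were above every IgHMOG iGBGFP library, while WT iGB6 replicate 1 lay below IgHMOG iGBGFP replicate 2 (log2 fold change 0.78, SE 0.24, adjusted p = 0.0784). In the authors' deposited table Ctsl passed as higher (adjusted p = 0.0477). In limma both Ctss and Ctsl passed with a replicate block (adjusted p = 0.0414 and 0.0283) and with library weights (0.0264 and 0.0196). With no filter on low values both passed too (0.0270 and 0.0309). Without the sex term neither passed (0.323 and 0.187). The exons of Ctsl share 1742 bases with the antisense gene Gm47123 and 395 with the pseudogene Gm49230, so the count of Ctsl is uncertain.

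Ctsb, which encodes cathepsin B, averaged 11601 ± 3483 in WT iGB6 and 11029 ± 1708 in IgHMOG iGBGFP (0.04, SE 0.24, adjusted p = 0.931). Ctsh, an aminopeptidase, was at -0.01 (SE 0.16) and Ctsz, a carboxypeptidase, at -0.17 (SE 0.20). Lgmn, which cuts after asparagine and matures several cathepsins, was at 0.25 (SE 0.29), and its highest library was WT iGB6 replicate 2, at 2026 normalized counts, against 613 to 1167 in IgHMOG iGBGFP. None of these 4 passed.

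Of the aspartic and serine proteases 0 of 4 passed with limma, edgeR or DESeq2, and 0 had an unadjusted p below 0.05. Tpp1, a tripeptidyl peptidase, had 1037, 1174 and 1073 normalized counts in WT iGB6 replicates 1, 2 and 3, against 897, 859.8 and 866 in the IgHMOG iGBGFP replicates. The groups did not overlap, though the difference was small (log2 fold change 0.32, SE 0.16, adjusted p = 0.241). Ctsa, the protective protein of beta-galactosidase and neuraminidase, had 2336, 5011 and 2533 in WT iGB6 and 2677, 5439 and 5669.9 normalized counts in IgHMOG iGBGFP (replicates 1, 2 and 3; -0.49, SE 0.25, adjusted p = 0.258). Ctsd, the main aspartic protease, had 6061, 8299 and 4479 in WT iGB6 and 6954, 9870.5 and 6301 normalized counts in IgHMOG iGBGFP (-0.31, SE 0.26, adjusted p = 0.503). For Ctsa both IgHMOG iGBGFP males and WT iGB6 replicate 2 were high, and for Ctsd replicate 2 was the highest of each group. Without WT iGB6 replicate 3 their fold changes were -0.17 for Ctsa and -0.04 for Ctsd. Ctse, an endosomal relative of Ctsd, was at -0.13 (SE 0.20) and was highest in the IgHMOG iGBGFP female, at 594 normalized counts.

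Of the glycosidases, which remove sugars from glycoproteins, glycolipids and glycogen, 0 of 6 passed with limma, edgeR or DESeq2 and 0 had an unadjusted p below 0.05, with a median of 0.04. Hexa, the alpha chain of hexosaminidase, averaged 2089 ± 207 in WT iGB6 and 1794 ± 159 in IgHMOG iGBGFP (0.22, SE 0.17, adjusted p = 0.465). Man2b1, the lysosomal alpha-mannosidase, averaged 2630.1 ± 441 in WT iGB6 and 3195 ± 202 in IgHMOG iGBGFP (-0.29, SE 0.18, adjusted p = 0.361), and Gusb, beta-glucuronidase, averaged 902 ± 148 in WT iGB6 and 754 ± 179.9 in IgHMOG iGBGFP (0.27, SE 0.18, adjusted p = 0.390). Glb1, the beta-galactosidase, was at 0.22 (SE 0.22), the alpha-galactosidase Gla at -0.14 (SE 0.36) and the acid glucosidase Gaa at -0.44 (SE 0.38). Gla and Gaa lay between 38.2 and 141 normalized counts in all libraries.

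Among 7 lysosomal membrane proteins 0 passed with limma, edgeR or DESeq2, and the median was -0.41. In limma 2 had an unadjusted p below 0.05, beside 24.5% of all tested genes. Lamp1, an abundant glycoprotein of the limiting membrane, had 225, 191 and 197 normalized counts in WT iGB6 replicates 1, 2 and 3, against 274, 559 and 259 in the IgHMOG iGBGFP replicates. WT iGB6 was below IgHMOG iGBGFP in every library, and IgHMOG iGBGFP replicate 2 stood well above the rest of its group (log2 fold change -0.74, SE 0.28, adjusted p = 0.141). Without that replicate the fold change was -0.36, the value nearest to 0 among the 6 fits that each left out a library. Lamp2, its paralog with a role in chaperone-mediated autophagy, had 4066, 4829 and 5480.1 normalized counts in WT iGB6 replicates 1, 2 and 3, against 3397, 3267 and 4474 in the IgHMOG iGBGFP replicates and a fold change of the other sign (log2 fold change 0.37, SE 0.19, adjusted p = 0.255).

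Cd68, a macrophage-rich Lamp relative, had 1311, 2639 and 1292 normalized counts in WT iGB6 replicates 1, 2 and 3, against 1639.7, 3237 and 3158 in the IgHMOG iGBGFP replicates. The females and WT iGB6 replicate 3 were low and the other males high, in overlapping groups (log2 fold change -0.63, SE 0.25, adjusted p = 0.157). Without WT iGB6 replicate 2 Cd68 passed as lower (-0.88, adjusted p = 0.0210), and without WT iGB6 replicate 3 its fold change was -0.30 (adjusted p = 0.313). Laptm5, a haematopoietic transmembrane protein that controls receptor turnover, averaged 8416 ± 1216 in WT iGB6 and 10705 ± 1229 in IgHMOG iGBGFP (-0.35, SE 0.20, adjusted p = 0.309), without overlap. Scarb2, the receptor that carries glucocerebrosidase, was at -0.48 (SE 0.24) and the tetraspanin Cd63 at 0.01 (SE 0.22).

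Of 13 genes of the proton pump 9 had a fold change above 0, beside 5119 of all 9923 tested genes. With the main limma fit, edgeR or DESeq2 0 of the 13 passed. In that limma fit 3 had an unadjusted p below 0.05, beside 24.5% of all tested genes. In limma with library weights 1 of the 13 passed, Atp6v1c1, at 0.49 (adjusted p = 0.0273). Of the V1 head, 5 of 7 subunits were above 0. Atp6v1c1, the C subunit that takes part in joining V1 to V0, had 1269, 1055 and 1155 normalized counts in WT iGB6 replicates 1, 2 and 3, against 898, 780.5 and 744 in the IgHMOG iGBGFP replicates. All WT iGB6 libraries were above all IgHMOG iGBGFP libraries (log2 fold change 0.52, SE 0.16, adjusted p = 0.0741; difference 0.50 in the female pair and 0.53 in the males). Atp6v1a, the catalytic A subunit, had 2033, 2092 and 2191 normalized counts in WT iGB6 replicates 1, 2 and 3, against 1665, 1398 and 1510.4 in the IgHMOG iGBGFP replicates. Its groups did not overlap either (log2 fold change 0.47, SE 0.16, adjusted p = 0.111), nor did those of Atp6v1h, a regulatory subunit, at 408, 411 and 524 in WT iGB6 and 348, 301 and 344 normalized counts in IgHMOG iGBGFP (0.43, SE 0.18, adjusted p = 0.184).

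Of the other V1 subunits, Atp6v1d was at 0.34 (SE 0.18) and Atp6v1e1 at 0.26 (SE 0.19). Atp6v1b2, the B subunit that pairs with A around the ring, was at -0.18 (SE 0.17), so the fold changes of the paired A and B subunits had opposite signs, a difference that was not tested. Atp6v1f averaged 738 ± 44.4 in WT iGB6 and 826 ± 145 in IgHMOG iGBGFP (-0.15, SE 0.18, adjusted p = 0.662). The V0 subunits and accessory proteins had a median of 0.11. Atp6v0d1, which couples the ring to the stalk, averaged 2040.2 ± 177 in WT iGB6 and 1778 ± 168 in IgHMOG iGBGFP (0.20, SE 0.16, adjusted p = 0.490). Atp6ap2, the (pro)renin receptor, was at 0.21 (SE 0.16) and Atp6ap1, an accessory protein of pump assembly, at -0.14 (SE 0.17). The proteolipid Atp6v0c was at 0.17 (SE 0.18), Atp6v0b at 0.06 (SE 0.18) and Atp6v0e at -0.06 (SE 0.19). Atp6v0c and Cd63 have pseudogenes named after them in the annotation, so their counts are uncertain. Atp6v0c-ps2 averaged 12.8 and Cd63-ps 31.9 normalized counts, and the sequences were not compared.

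When each library was scaled to its own total, the median of all genes moved to -0.19 (an alternative added after seeing the data). The 10 most abundant genes of a library held 25.1 to 34.9% of its reads in WT iGB6 and 17.3 to 29.1% in IgHMOG iGBGFP. On that scale the V1 median was 0.13, or 0.32 relative to all genes, and the V0 and accessory median was -0.10, or 0.09 relative to all genes. With the authors' size factors these relative medians were likewise 0.32 for V1 and 0.09 for V0. Rescaling a library shifts the log2 values of all its genes nearly alike. The agreement is therefore fixed by arithmetic and is not a result about the classes. With each library scaled to its own total, Tfeb and Npc2 passed in limma too, at -1.39 (adjusted p = 0.0433) and -1.07 (adjusted p = 0.0364).

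As shares of a library, the 46 genes together held 1.54, 2.52 and 1.52% in WT iGB6 replicates 1, 2 and 3, against 1.87, 2.95 and 3.24% in IgHMOG iGBGFP. WT iGB6 replicate 2 was above IgHMOG iGBGFP replicate 1, and the groups overlapped. Lipid genes held the largest share of the 8 classes, at 0.468, 0.922 and 0.471% in WT iGB6 replicates 1, 2 and 3, against 0.703, 1.21 and 1.45% in IgHMOG iGBGFP. Most of that share was Psap, which was not called. Psap had 19849 of the 33012 normalized counts of the class in WT iGB6 replicate 1. In IgHMOG iGBGFP replicate 3 it had 50205 of 75413. V1 subunits held 0.157, 0.169 and 0.164% in WT iGB6 replicates 1, 2 and 3, against 0.154, 0.173 and 0.183% in IgHMOG iGBGFP. The females had the lowest share of both classes in each group.

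**Figure D3:**
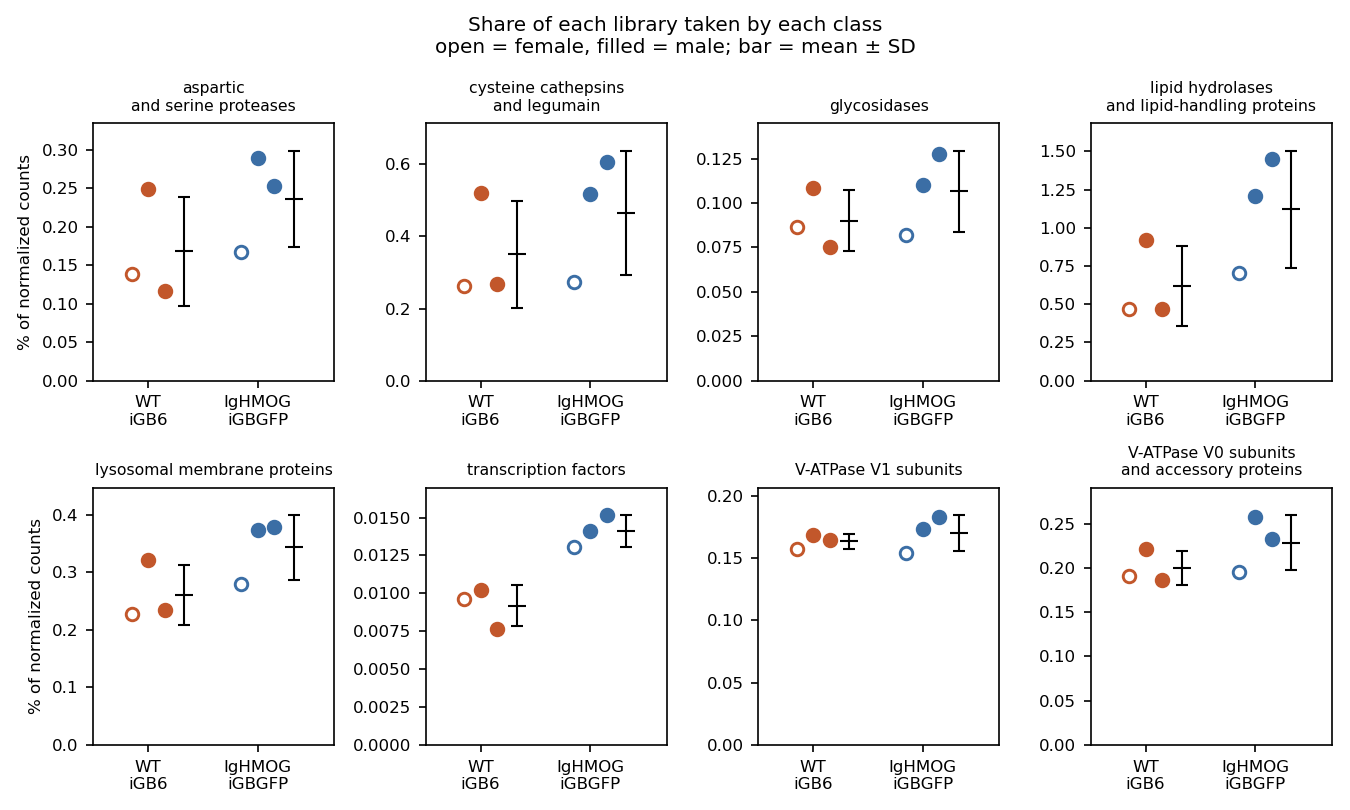
Percentage of each library's normalized counts held by each class of genes, WT iGB6 left of IgHMOG iGBGFP, with mean ± SD (n = 3 per group); open points are the females and filled points the males. The lipid class holds 0.468 to 0.922% in WT iGB6 and 0.703 to 1.45% in IgHMOG iGBGFP, and the V1 class 0.157 to 0.169% in WT iGB6 and 0.154 to 0.183% in IgHMOG iGBGFP.

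Of the 46 genes, 14 had their highest value in IgHMOG iGBGFP replicate 2, 11 in IgHMOG iGBGFP replicate 3 and 9 in WT iGB6 replicate 2, all males. The lowest value was in WT iGB6 replicate 3 for 13 genes and in IgHMOG iGBGFP replicate 1 for 10. In the same limma model 0 of 46 passed for females against males, beside 0.0605% of all genes, and 11 of 46 (23.9%) had an unadjusted p below 0.05, beside 13.9% of all genes. Sex and replicate number 1 coincide and cannot be told apart. The difference between WT iGB6 and IgHMOG iGBGFP had the same sign in the female pair as in the males for 35 of 46 genes. A test of whether it differed between sexes called 0 of 46 genes, and 0% of all genes, with 0 of 46 at an unadjusted p below 0.05 beside 1.49% of all genes, and a single mouse per group among the females.

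**Figure D4:**
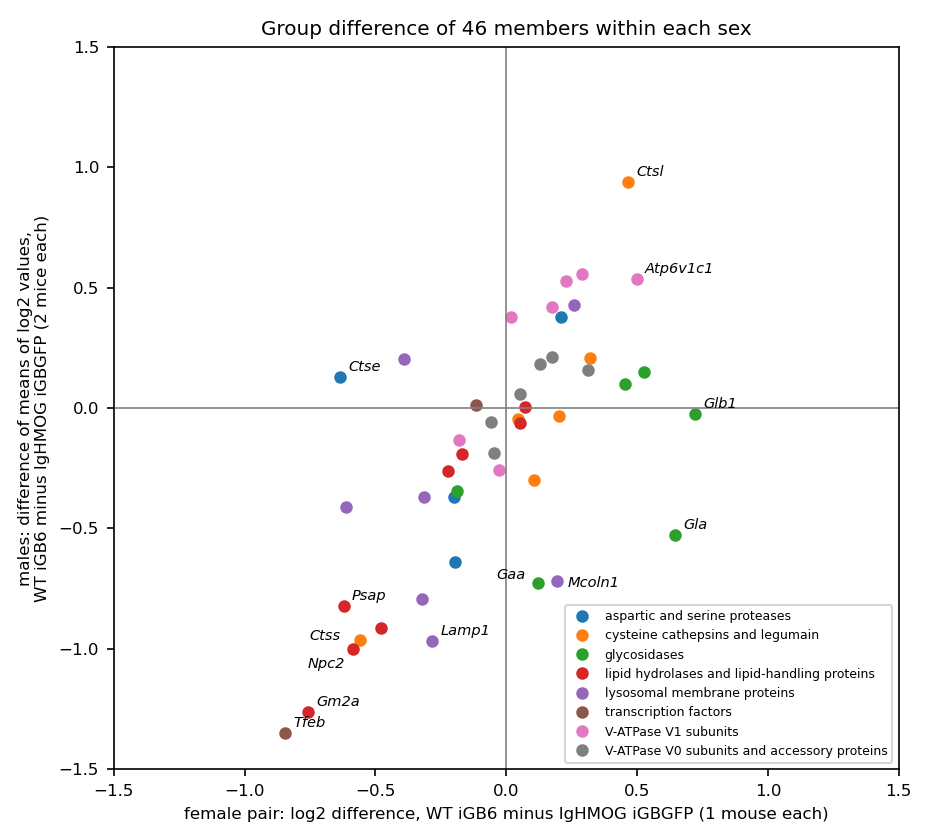
Group difference of each gene within sexes on the log2(normalized count + 1) scale, WT iGB6 minus IgHMOG iGBGFP, with the female pair (1 mouse each) on the x axis and the males (2 mice each) on the y axis. Tfeb, at -0.84 in the female pair and -1.35 in the males, is lowest on both axes, and 35 of 46 genes lie in the lower left or upper right, where both differences have the same sign.

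Further lysosomal genes, in 6 lists that share no gene with the 46, gave 7 calls among 116 tested, or 6.03%, a share at the 6.12% of all tested genes. The genes called are named with their values as a description. Of 32 tested further hydrolases, 1 fell and 1 rose. Scpep1, a serine carboxypeptidase, had 186, 475 and 261 in WT iGB6 and 369, 787 and 999.6 normalized counts in IgHMOG iGBGFP (-1.21, SE 0.24, adjusted p = 0.0228), and the sulfatase Galns had 1215, 898 and 1173 in WT iGB6 and 932, 474 and 489.8 normalized counts in IgHMOG iGBGFP (0.85, SE 0.20, adjusted p = 0.0382). Plbd1, the most abundant of that list per kb, was at 0.54 (SE 0.38). Of 23 further membrane proteins, Hgsnat, an acetyltransferase of heparan sulfate breakdown, fell, at 48.6, 66.3 and 43.9 in WT iGB6 and 100.2, 148 and 117 normalized counts in IgHMOG iGBGFP (-1.19, SE 0.25, adjusted p = 0.0291), and Laptm4a, the most abundant per kb, was at -0.26 (SE 0.16).

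Of 9 tested further pump subunits and regulators, Dmxl2, a subunit of the complex that promotes assembly of V1 with V0, fell, at 157, 211 and 197 in WT iGB6 and 299.7, 338 and 313 normalized counts in IgHMOG iGBGFP (-0.76, SE 0.18, adjusted p = 0.0384), and Atp6v1g1 was at -0.18 (SE 0.19). Atp6v0e2, Atp6v1b1 and Atp6v1e2 had no read in any library. Of 12 sorting genes, Gga2, an adaptor that carries mannose 6-phosphate receptors out of the Golgi, rose, but on few counts, 32.0, 22.9 and 20.2 in WT iGB6 and 7.16, 8.62 and 2.00 normalized counts in IgHMOG iGBGFP (2.05, SE 0.50, adjusted p = 0.0410). The receptor M6pr was at 0.10 (SE 0.18) and Igf2r, which did not pass, at 0.83 (SE 0.22).

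Of 21 nutrient sensing genes, Mlst8, a shared subunit of both mTOR complexes, rose, at 779, 519 and 686 in WT iGB6 and 575, 261 and 253 normalized counts in IgHMOG iGBGFP (0.95, SE 0.21, adjusted p = 0.0324), and Lamtor4 of the Ragulator complex was at 0.21 (SE 0.23). Of 19 autophagy genes, Ulk1, the kinase that starts autophagosome formation, fell, at 54.5, 71.0 and 60.7 in WT iGB6 and 110.5, 191 and 110.0 normalized counts in IgHMOG iGBGFP (-1.09, SE 0.26, adjusted p = 0.0389), and Gabarap, the most abundant per kb, was at -0.28 (SE 0.21). Each of the 7 genes that passed in these lists lost its call in limma without the sex term.

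Markers of cell types were tested in the same limma fit. The marker lists were chosen with earlier results of these data known, so their counts are a description. Over all tested genes 3.37% fell and 2.75% rose. Of conventional dendritic cell genes 5 of 8 tested fell and 0 rose. The 10 genes of that list together held 0.00129 to 0.00591% in WT iGB6 and 0.00778 to 0.0326% in IgHMOG iGBGFP. Of classical monocyte genes 3 of 6 fell and 0 rose (0.175 to 0.339% in WT iGB6 and 0.240 to 0.627% in IgHMOG iGBGFP), and of non-classical monocyte genes 4 of 6 fell and 0 rose (0.0147 to 0.0349% in WT iGB6 and 0.0263 to 0.0827% in IgHMOG iGBGFP). In each of these lists the highest library was IgHMOG iGBGFP replicate 3, and WT iGB6 replicate 2 was the highest of its group. Cd209a, a lectin of dendritic cells, had 5.93, 68.7 and 24.7 in WT iGB6 and 213, 439 and 882 normalized counts in IgHMOG iGBGFP, and Cx3cr1, the fractalkine receptor, had 149, 523 and 235 in WT iGB6 and 552, 768 and 2118 normalized counts in IgHMOG iGBGFP.

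Splenic macrophage genes rose in 1 of 11 cases (Cd5l, which encodes a secreted scavenger protein; 1.47, SE 0.36, adjusted p = 0.0419) and fell in 0, with 0.0928 to 0.249% in WT iGB6 and 0.146 to 0.221% in IgHMOG iGBGFP. The shares over all tested genes, 3.37% lower and 2.75% higher, stand beside the counts of these lists too. Basophil and mast cell genes fell in 5 of 7 cases (0.00657 to 0.0235% in WT iGB6 and 0.0354 to 0.131% in IgHMOG iGBGFP). Neutrophil precursor genes rose in 7 of 7 cases (0.142 to 0.367% in WT iGB6 and 0.0397 to 0.0802% in IgHMOG iGBGFP), while mature neutrophil genes held 4.95 to 6.63% in WT iGB6 and 4.04 to 6.93% in IgHMOG iGBGFP, with 1 of 8 lower (Cxcr2, -0.90, SE 0.21, adjusted p = 0.0360) and 0 higher. Of genes of cell isolation stress 9 of 12 fell and 0 rose (0.0652 to 0.211% in WT iGB6 and 0.264 to 0.490% in IgHMOG iGBGFP). Nr4a1 is in both this list and that of non-classical monocytes, so these lists are not separate. Of erythroid and platelet genes 1 of 6 tested rose and 1 fell, and 0 of 3 B and plasma cell genes, 0 of 5 T and NK cell genes and 0 of 1 plasmacytoid dendritic cell gene passed with limma, edgeR or DESeq2 (1, 1 and 0 at an unadjusted p below 0.05). No marker of these lists was at 0 in every library. The part of these cells, and of the stress genes, in the differences of lysosomal genes was not tested.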

How the data were processed

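RNA was sequenced from splenic CD11b+ cells of 6 mice, 3 per group. The labels' protocols give 8-16 ng of RNA, 17 cycles of cDNA amplification and 9 of library amplification, with no molecular identifiers. Per the submitters' processing notes, tools were FastQC 0.74, cutadapt 4.4, STAR 2.7.10b, featureCounts 2.0.3 and DESeq2 2.11.40.7 on GRCm38/mm10. The authors deposited DESeq2 normalized counts (a signal scale of counts divided by size factors), with a table of log2 fold changes, standard errors, a test score and p-values. The values of a library were whole multiples of the worth of 1 read, which recovered whole reads for 100% of values (tolerance 0.001), and 3 reads are worth 2.37 to 3.56 normalized counts.

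Genes with a mean of at least 10 normalized counts (9923 of 43432) were tested with limma 3.58.1 in R 4.3.3 on log2(normalized count + 1) with group and sex as terms. Printed errors are SDs over mice or limma's standard errors. As alternatives, the recovered reads were tested with edgeR 4.0.16 and with DESeq2 1.42.0. Symbols came from GENCODE M21 (42548 matched) and promoters from RefSeq GRCm38.p6. The 46 genes and the 19 other lists were chosen with earlier results of these data known. Named genes are the called ones, the 2 with the smallest p and the most abundant per kb in each class, Tfeb, Tfe3, Mcoln1, Itgam and Il6, called and most abundant genes of other lists, and other genes singled out after their values were seen.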

Additional observations from a re-analysis of the deposited data

How the results depend on the processing

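All genes called numbered 607 of 9923 tested (6.12%), with 2 of the 46 lysosomal genes. Without the sex term these counts were 10 (0.101%) and 0, and with males alone 134 (1.35%) and 0. With no filter on low values they were 1079 and 5, but of 22665 genes tested. Library weights gave 1443 of 9923 and 6, and DESeq2 gave 951 (9.58%) and 5. In the table deposited by the authors there were 862 of 10537 genes with an adjusted p (8.18%) and 6. The causes were not tested. Leaving out 1 library gave 4 to 1083 of 9923 genes and 0 to 5 of the 46. There were 4 genes without IgHMOG iGBGFP replicate 2, 26 without its replicate 3 and 128 without its replicate 1. Without WT iGB6 replicate 1 there were 135, and without WT iGB6 replicate 2 there were 1083. A replicate block called 1001 of 9923 genes and 5 of the 46 (Ctsl, Ctss, Gm2a, Npc2 and Tfeb). Same-numbered libraries correlated at 0.48, 0.35 and 0.04 in their deviations from group means. WT iGB6 replicates 1 and 2 correlated best with their own number, and WT iGB6 replicate 3 with IgHMOG iGBGFP replicate 1 (0.085). Mouse numbers in the labels lie close together within a replicate number, but the labels state no pairing. Deviations from a mean of 3 libraries constrain each other, so these correlations cannot settle whether mice were paired. The main fit did not pair them. Neither Tfeb nor Npc2 changed sign under any of these alternatives, and the genes that did were not called. With 1 library left out their log2 fold changes ranged from -0.271 to 0.127 for Ctse, -0.164 to 0.298 for Ctsb, -0.0567 to 0.0442 for Ctsh, -0.309 to 0.0557 for Ctsz, -0.123 to 0.635 for Lgmn, -0.529 to 0.234 for Gla, -0.0261 to 0.409 for Glb1, -0.825 to 0.0976 for Gaa, -0.389 to 0.0259 for Lipa, -0.103 to 0.0783 for Asah1, -0.0439 to 0.108 for Grn, -0.188 to 0.205 for Cd63, -0.0830 to 0.0111 for Tfe3, -0.0581 to 0.169 for Atp6v0b and -0.207 to 0.0896 for Atp6v0e. The sign also changed with males alone for Ctse (0.127), Ctsb (-0.0348), Glb1 (-0.0261) and Tfe3 (0.0111), with library weights for Ctsz (0.00881), Gla (0.153), Asah1 (0.0203) and Cd63 (-0.172), with TMM factors for Grn (-0.00247) and Cd63 (-0.0214), with edgeR for Cd63 (-0.0202) and with DESeq2 for Cd63 (-0.00979). Total-count scaling, chosen after seeing the data, moves the median of all genes to -0.19, and under it Ctsb (-0.164), Grn (-0.183), Cd63 (-0.202), Atp6v0b (-0.152), Atp6v0c (-0.0421) and Atp6v0d1 (-0.00932) lay below 0; relative to the median of all genes they were at 0.0239 for Ctsb, 0.00548 for Grn, -0.0134 for Cd63, 0.0357 for Atp6v0b, 0.146 for Atp6v0c and 0.179 for Atp6v0d1. Other pseudocounts, TMM factors, a minimum mean of 50, edgeR and total-count scaling called 2 of the 46. Over the 46 genes 795 of the alternative values kept direction and side of the threshold, 21 passed newly, 12 no longer passed and 45 changed sign. Genes of few reads, such as Mcoln1, are limited by depth.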
